A study of Triticum aestivum with 12 samples.

Results

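Acute freezing was set against prolonged chilling in crowns of the wheat cultivar Jing411, the crown being the compressed stem at soil level that carries the growing points. The comparison takes 6 of the 12 RNA sequencing libraries, grouped by their labels. The 3 NTGF libraries come from plants kept at 20 °C for 28 days and then held at -5 °C for 24 hours. The 3 LTA libraries come from plants kept at 4 °C for 28 days and not frozen. The other 6 libraries are NTG (20 °C for 28 days) and LTAF (4 °C for 28 days, then -5 °C for 24 hours). The series calls its 3 libraries per group biological replicates, but nothing says how many plants each holds, so p-values measure the spread between these libraries. The labels' tissue field gives another word than crown, which is taken from the extraction protocol.

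Weeks of cold above the freezing point bring wheat into cold acclimation, and also satisfy the need of winter forms for vernalization. CBF transcription factors take part in acclimation, during which dehydrins, other cold-induced proteins and soluble sugars build up. Freezing acts in another way: ice outside the cells draws water out of them, and plants that were not acclimated meet this without those stores. NTGF and LTA plants therefore met cold of different depth and length, and they differ in growth temperature and in freezing at once, which this pair of groups alone cannot tell apart. The deposited table pairs its gene identifiers with no name, and the RefSeq table of wheat genes (assembly IWGSC CS RefSeq v2.1) matched 0 of the 128497 identifiers. Genes are therefore given by identifier, with no role, and markers of the crown could not be read. The ending LC marks a low-confidence gene model, and identifiers without it are high-confidence models. The 2 characters after "TraesCS" give the chromosome and its subgenome, A, B or D.

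The NTGF libraries held 17871036 to 20089202 counted reads and the LTA libraries 19451497 to 21229248. NTGF replicates were less alike. Their rank correlations with each other across tested models were 0.932 to 0.947, the lower values being those of NTGF replicate 1, while LTA replicates reached 0.97 to 0.979. The median SD of log2 CPM (CPM, a model's count scaled to a library of fixed size) over the 69693 tested models was 0.368 in NTGF and 0.226 in LTA. In the wider series LTAF replicate 2 stood apart as well, at 0.917 and 0.935 with its group, so counts are also given without it and without NTGF replicate 1. The first 16 high-confidence models of chromosome 1A, a set chosen on earlier results, held 18, 3 and 4 counts in the NTGF libraries and 116, 118 and 96 in the LTA libraries. They held 102 to 154 counts in the LTAF and NTG libraries. For models missing in NTGF alone, plants of another genotype cannot be told apart from a response to the treatment.

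Frozen unacclimated crowns and chilled crowns differed across a large part of the transcriptome, about as often in either direction. edgeR's quasi-likelihood test, fitted on all 12 libraries, called 13788 models higher and 14131 lower in NTGF than in LTA at a Benjamini-Hochberg adjusted p under 0.05. These are 19.8% and 20.3% of the models tested, 40.1% together. Of them, 9132 and 9326 (13.1% and 13.4%) differed at least 2-fold by the fitted value. Without NTGF replicate 1 the counts were 13012 and 12641. The median log2 fold change of all models was 0.04, and 0.07 when libraries were scaled by their totals, with 49.4% and 51.0% of the calls higher. In RNA from whole crowns, fewer cells of a type and less RNA per cell cannot be told apart.

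The called models carried much of the RNA. Models called higher in NTGF held 32.04%, 33.37% and 37.66% of the counts of the NTGF libraries, but 13.9%, 13.3% and 13.4% of the LTA libraries. Models called lower held 16.8%, 19.7% and 15.2% in NTGF and 41.2%, 41.1% and 41.2% in LTA. The groups lay far apart, as the calls that chose the models require, so these shares are a description. The LTA transcriptome was concentrated in fewer models than that of NTGF. The number of models that together hold 50% of the counts was 2939, 2791 and 3272 in NTGF and 2406, 2533 and 2553 in LTA, a difference in means of 503.3 without overlap. An exact two-sided permutation test gave p = 0.1, below which 3 libraries against 3 cannot go. In LTAF the number was 2592, 2821 and 2288, which overlapped with both LTA and NTGF. In NTG it was 4103, 3904 and 3682, above every other group. The 10 most abundant models of a library held 1.91% ± 0.247 of the counts in NTGF and 3.03% ± 0.162 in LTA (SD, n = 3; exact two-sided permutation p = 0.1). They held 2.98% ± 0.673 in LTAF and 1.99% ± 0.0655 in NTG (SD, n = 3).

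**Figure D1:**
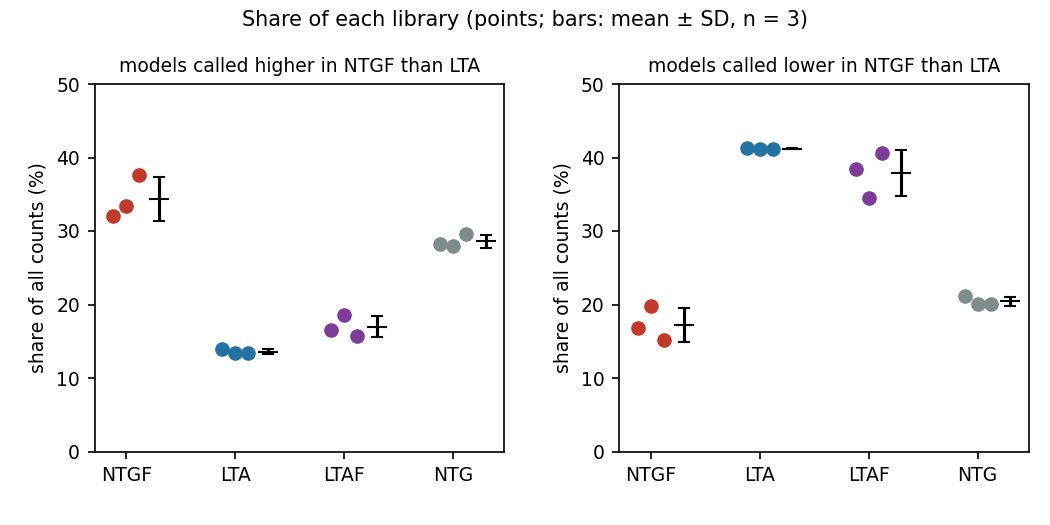
Share of all counts (%) held in each of the 12 libraries by models called higher (left) or lower (right) in NTGF than in LTA. Points are libraries and bars the mean ± SD (n = 3). LTAF and NTG, which entered the fit but not the contrast, lie near LTA and nearer to NTGF, respectively.

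LTAF and NTG are not compared in the calls that made these lists, though they share the filter, scaling and spread estimates of the fit. In both lists their order followed growth temperature. Models called higher in NTGF held 16.6%, 18.5% and 15.8% of the LTAF counts and 28.2%, 28.0% and 29.5% of the NTG counts. Models called lower held 38.5%, 34.5% and 40.6% in LTAF and 21.2%, 20.1% and 20.0% in NTG. Neither pair of groups overlapped, with exact two-sided permutation p = 0.1 for each list, again the smallest possible.

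The contrast of LTAF against NTG shares no library with NTGF against LTA and crosses the same 2 factors the other way. A model that is higher in NTGF than LTA and also higher in LTAF than NTG is higher in the frozen group of each pair. One that is higher in NTGF and lower in LTAF is lower in the group grown at 4 °C in each pair. LTAF against NTG called 16404 models higher and 14972 lower (23.5% and 21.5% of the models tested, 45.0% together). Of the 16793 models called in both contrasts, 14091 (83.9%) had opposite signs and so were ordered by growth temperature, and 2702 (16.1%) had the same sign and were ordered by freezing. Across all 69693 models the 2 sets of fold changes had a Pearson correlation of -0.335 and a Spearman correlation of -0.433, over models that are not independent replicates and share the scaling and spread estimates of the fit.

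**Figure D2:**
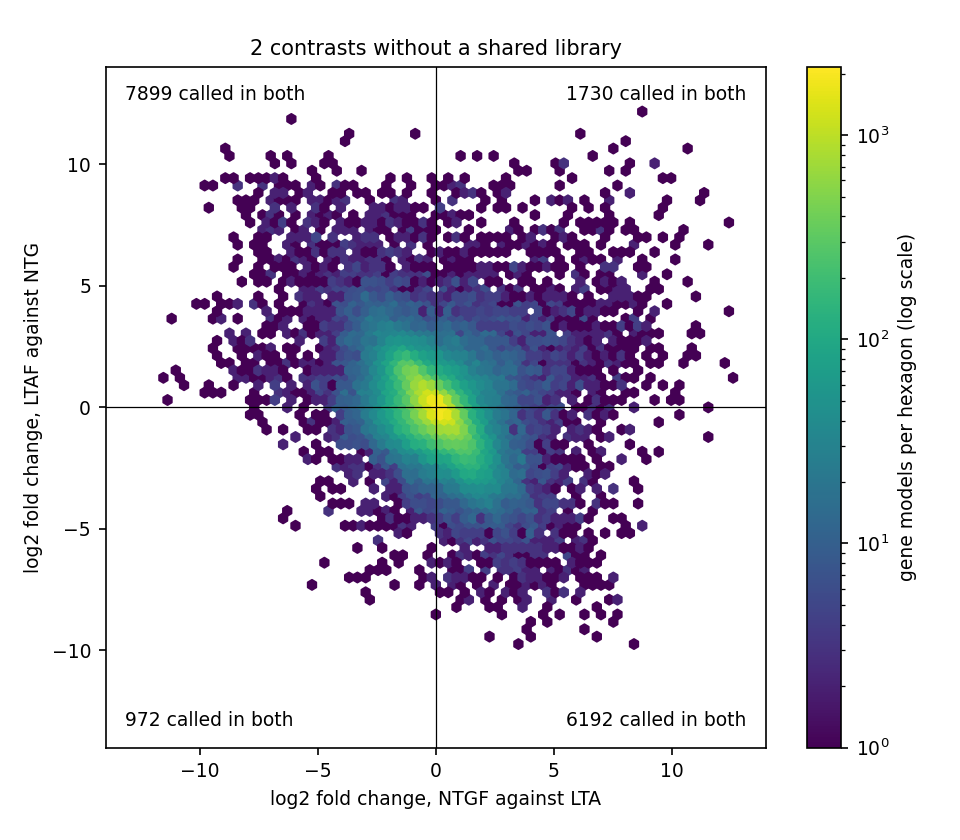
Log2 fold change of NTGF against LTA (horizontal) and of LTAF against NTG (vertical) for 69693 gene models, counted in hexagons on a log colour scale. The numbers in the corners are models called in both contrasts: 7899 and 6192 with opposite signs, 1730 and 972 with the same sign.

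Models lower in NTGF and higher in LTAF, that is higher in the 4 °C group of each pair, formed the most numerous of the 4 classes, with 7899 members. They were 55.9% of the models lower in NTGF, beside 23.5% of all tested models higher in LTAF. They were also 48.1% of those higher in LTAF, beside 20.3% of all tested models lower in NTGF. Their median level in the higher of NTGF and LTA was 14.5 CPM. Those lower in the 4 °C group of each pair numbered 6192. They were 44.9% of the models higher in NTGF, beside 21.5% of all tested models lower in LTAF. They were also 41.4% of those lower in LTAF, beside 19.8% of all tested models higher in NTGF. Their median level was 6.86 CPM. Without LTAF replicate 2 these classes held 8475 and 7690 models, and without NTGF replicate 1 they held 7227 and 5503.

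Models higher in the frozen group of each pair numbered 1730. They made up 12.5% of the list higher in NTGF, below the 23.5% of all tested models that were higher in LTAF. They also made up 10.5% of the list higher in LTAF, below the 19.8% of all tested models that were higher in NTGF. Their differences were the widest of the 4 classes, with a median of 2.20 on the log2 scale between NTGF and LTA against 1.24 to 1.39 in the other 3 classes. The class held 2230 models without NTGF replicate 1 and 1726 without LTAF replicate 2. Models lower in the frozen group of each pair numbered 972. They were 6.88% of those lower in NTGF, beside 21.5% of all tested models lower in LTAF. They were also 6.49% of those lower in LTAF, beside 20.3% of all tested models lower in NTGF. In this class 493 (50.7%) were low-confidence models, against 9.14% to 13.7% in the other 3 classes. Low-confidence models were 12097 of all 69693 tested and 3393 of the 14131 lower in NTGF. The median level of the class was 2.42 CPM. Of the class, 10.2% reached 10 CPM in the higher of NTGF and LTA, against 40.2% to 60.2% in the other classes. The 5260 models lower in NTGF and not called in LTAF against NTG came closest, with 39.4% low-confidence models, a median of 3.09 CPM and 19.6% at 10 CPM or more. The class lower in the frozen group of each pair held 645 models without LTAF replicate 1 and 593 without NTG replicate 2.

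Scaling bears on these classes through LTAF against NTG. When library totals replaced TMM, the median over all models in that contrast went from -0.06 to -0.49 on the log2 scale, and 27.2% of its calls were higher against 52.3%. Opposite signs still prevailed: the classes with opposite signs then held 5804 (higher at 4 °C) and 9079 (lower at 4 °C) models, and those with the same sign 1226 (higher when frozen) and 2065 (lower when frozen).

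The size of the difference between NTGF and LTA set apart the models higher in NTGF. Of those under 2-fold higher, 7.60% were called higher and 36.1% lower in LTAF than NTG. From 2- to 4-fold the shares were 8.18% and 53.8%, and from 4- to 16-fold 18.0% and 50.3%. Among the 1098 models at least 16-fold higher by the fitted value the order turned, with 40.3% called higher in LTAF and 26.1% lower. Of these, 221 had no count in LTA, so their fitted value is no measure of size. With folds of mean CPM and a group without a count set to a floor of 3 counts, 968 models were at least 16-fold higher, of which 43.8% were higher in LTAF and 22.2% lower. Models lower in NTGF showed no such turn. Between 49.7% and 71.8% of every size group were higher in LTAF, and 5.34% to 7.89% were lower, with 71.8% and 5.34% among the 618 at least 16-fold lower. Of these 618, 140 had no count in NTGF.

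The strongly higher models stayed more often higher than lower in LTAF under every alternative run, but the gap varied. It was 14.2 percentage points, 5.63 with library totals and 6.64 without the filter on low counts. Left out one at a time, NTGF replicates 2 and 3 gave 9.35 and 7.98, LTA replicates 2 and 3 gave 8.99 and 8.97, and NTG replicates 2 and 3 gave 4.45 and 8.73. The groups of fold size were set after the data were seen, and the shares are a description over models, with no test.

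**Figure D3:**
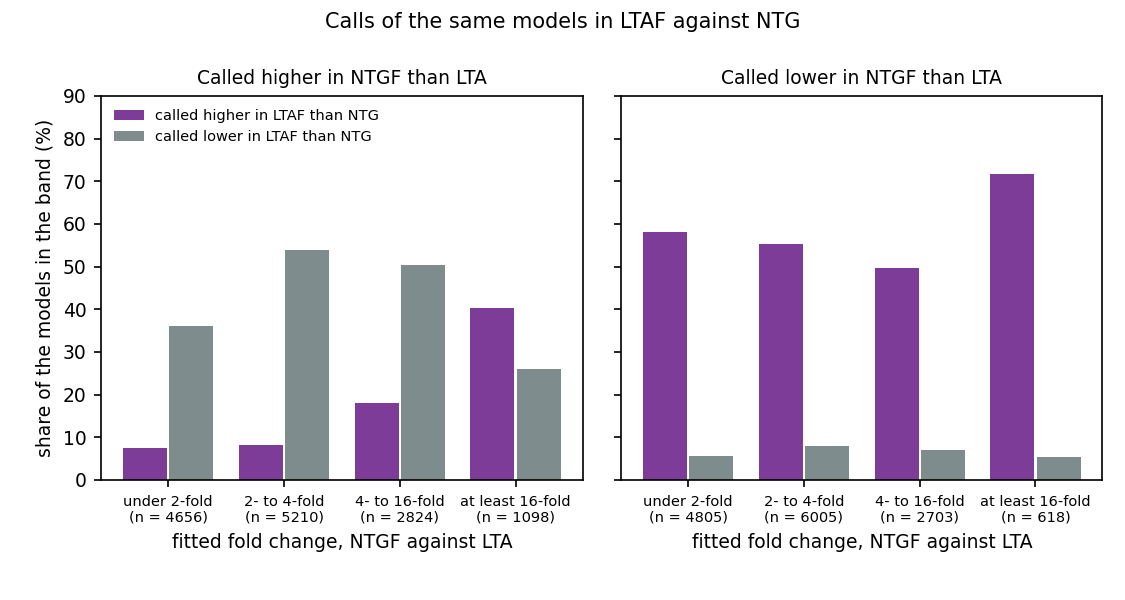
Share (%) of models called higher (purple) or lower (grey) in LTAF than NTG, by their fitted fold change between NTGF and LTA, for models higher (left) and lower (right) in NTGF. The purple bar passes the grey one only in the last group on the left, at 40.3% against 26.1%, and does so in all groups on the right.

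Named models were taken by fixed rules. Each had to be called, and its 3 NTGF and 3 LTA libraries could not overlap. Where a group has no count, the fold is a lower bound, computed as if its 3 libraries together held 3 counts, and intervals on ratios of mean CPM are 95% exact counting intervals, which leave out the spread between libraries. Without molecular identifiers, PCR copies of 1 molecule count as separate reads. Near-identical copies of a gene on the 3 subgenomes can share reads, and how the counting treated such reads is not given in the sources used here.

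By fold, TraesCS1A01G370600 on chromosome 1A came first among 5964 eligible models higher in NTGF. It lay at 43.2, 45.6 and 21.5 CPM in NTGF and had no count in any LTA library, at least 701.6-fold higher (edgeR adjusted p = 0.000546), or 456.3-fold without LTA replicate 2. It was at 4.90, 3.19 and 9.14 CPM in LTAF and 5.14, 0.307 and 1.27 in NTG, which overlap (edgeR adjusted p = 0.195). Growth at 4 °C without freezing is thus the group in which this model was not detected, and NTGF stood above all others. TraesCS2D01G110000 on 2D also had its highest level in NTGF, with 24.4, 40.7 and 38.8 CPM in NTGF and no count in LTA, at least 661.2-fold higher (edgeR adjusted p = 8e-05; 430-fold without LTA replicate 2). Its LTAF libraries lay at 1.54, 1.65 and 1.24 CPM and its NTG libraries at 0.844, 0 and 0.471, without overlap but not past the threshold (edgeR adjusted p = 0.0677).

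In the other direction, among 5828 eligible models, the first by fold were TraesCS5D01G547500LC and TraesCSU01G607400LC, a model not placed on a chromosome. The former had no count in NTGF and 21.2, 19.6 and 17.4 CPM in LTA, at least 363.3-fold lower in NTGF (edgeR adjusted p = 4.5e-07). Without NTGF replicate 1 or 2 the bound was 236.6 or 241.6. The latter had no count in NTGF and 19.1, 14.4 and 15.4 CPM in LTA, at least 304.8-fold lower (edgeR adjusted p = 4.33e-07; 198.5 and 202.7 without NTGF replicate 1 or 2). Both were detected in all LTAF and NTG libraries, at 17.78 to 24.46 and 8.43 to 11.9 CPM for the former and 15.3 to 21.7 and 13.7 to 15.2 for the latter. They are thus missing in NTGF alone, and the limit on genotype given above holds for both.

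By difference in level, the first model higher in NTGF was TraesCS2B01G077700 on 2B, with 1135, 1878 and 1285 CPM in NTGF against 249.7, 115.3 and 147 in LTA. The log2 fold change was 3.07 ± 0.42 (SE; edgeR adjusted p = 0.000256). NTG lay at 804.4, 1040 and 1300 CPM and LTAF at 79.3, 194 and 77.7, so that both groups grown at 20 °C were high and both grown at 4 °C low. TraesCS5B01G492500 on 5B followed the same order with a smaller difference. It was at 1432, 1690 and 2105 CPM in NTGF and 590.2, 663.9 and 657.8 in LTA (log2 fold change 1.45 ± 0.18, SE; edgeR adjusted p = 0.000126). NTG means of 1741 ± 31.6 CPM and LTAF means of 768.8 ± 139.6 (SD, n = 3) stood beside 1742 ± 339.4 in NTGF and 637.3 ± 40.9 in LTA.

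The models with the greatest loss of level in NTGF against LTA were TraesCS5D01G329200 on 5D and TraesCS5A01G322500 on 5A. TraesCS5D01G329200 reached 4900, 4314 and 3841 CPM in LTA, a mean of 0.412% of all counts, and 590, 861.2 and 382.7 CPM in NTGF. The log2 fold change was -2.83 ± 0.30 (SE; edgeR adjusted p = 4.51e-05). It lay at 4148, 2987 and 5168 CPM in LTAF and 1495, 1243 and 1647 in NTG, so NTGF was the lowest of the 4 groups and did not overlap with NTG. TraesCS5A01G322500 had nearly the same values in each library, 4478, 3857 and 3590 CPM in LTA against 623.9, 920.6 and 391 in NTGF (log2 fold change -2.62 ± 0.30, SE; edgeR adjusted p = 6.71e-05). Its LTAF libraries ranged from 2787 to 4653 CPM and its NTG libraries from 1235 to 1578. Whether this pair are copies that share reads is not annotated in the files.

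**Figure D4:**
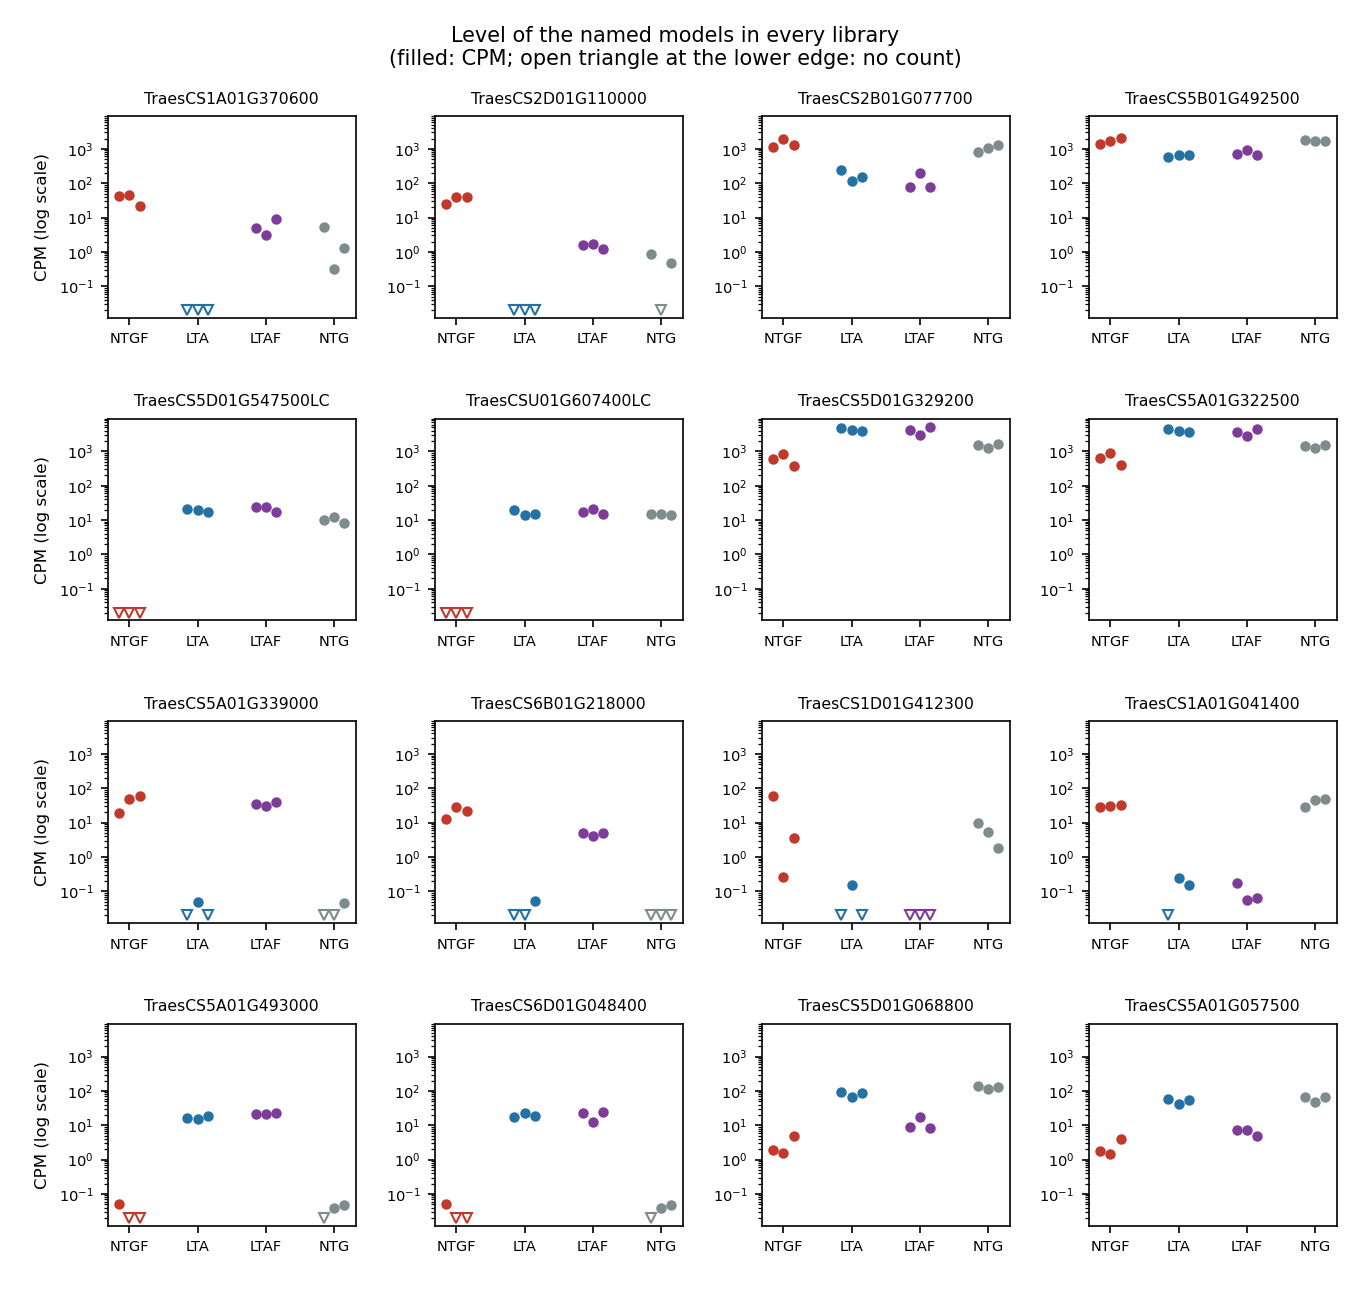
Level (CPM, log scale) of the 16 named models in each of the 12 libraries. Filled points are libraries with a count and open triangles, drawn at the lower edge, libraries without one. Top rows show the models first by fold or by level, and lower rows the first of each class over both contrasts, such as TraesCS5A01G493000, near 0 in NTGF and NTG and at 15.7 to 22.4 CPM in LTA and LTAF.

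Each class over both contrasts had its own leading models, for which all 4 groups entered the choice and the values are a description. Higher in both frozen groups, TraesCS5A01G339000 on 5A lay at 18.9, 48.6 and 58.9 CPM in NTGF and 35.6, 30.2 and 40 in LTAF. It had 1 count over the LTA libraries and 1 over the NTG libraries. The ratios were 2530 (453.7 to 99990; edgeR adjusted p = 3.92e-06) for NTGF against LTA and 2247 (402.7 to 88790; edgeR adjusted p = 2.96e-06) for LTAF against NTG. The single LTA count lies in replicate 2, and leaving that library out turned the former into a bound of 522.9. The latter was 1498 without NTG replicate 1 or 2 and a bound of 612.9 without NTG replicate 3. This model was nearly silent in every unfrozen crown at either temperature.

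TraesCS6B01G218000 on 6B, second in this class, reached 12.7, 29.1 and 22 CPM in NTGF but only 4.85, 4.05 and 4.97 in LTAF. With 1 count in LTA, NTGF was 1215 times higher (217.6 to 48020; edgeR adjusted p = 4.98e-06). This became a bound of 270.7 once LTA replicate 3 was left out. NTG held none, so the bound for LTAF over NTG was 113.1-fold (edgeR adjusted p = 1.32e-05; 72.9-fold without NTG replicate 1 or 2). NTGF thus lay above LTAF in every library of this model, a difference that was not tested here.

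Lower at 4 °C in both pairs, TraesCS1A01G041400 on 1A lay at 28.1, 30.1 and 31.9 CPM in NTGF and 28.8, 46.8 and 49.8 in NTG. It was at 0, 0.25 and 0.157 CPM in LTA and 0.171, 0.057 and 0.0622 in LTAF. The ratio was 221.5 (112.1 to 513.8; edgeR adjusted p = 1.53e-06) between NTGF and LTA, and 381.8 without LTA replicate 2. It was 432 (184.9 to 1331; edgeR adjusted p = 8.37e-07) between NTG and LTAF, and 701.3 without LTAF replicate 1. The first model of this class by the rule, TraesCS1D01G412300 on 1D, rested on single libraries. It was at 57.9, 0.266 and 3.60 CPM in NTGF against 0, 0.15 and 0 in LTA. This ratio of 412.4 (140.8 to 2002; edgeR adjusted p = 0.0159) was 38.8 without NTGF replicate 1 and became a bound of 255.7 without LTA replicate 2. Its NTG libraries held 9.90, 5.44 and 1.84 CPM and LTAF none, at least 97.7-fold lower (edgeR adjusted p = 0.0372). That bound was 62.1 without NTG replicate 1 and 64.2 without LTAF replicate 1 or 2. The edgeR call for NTGF against LTA ended without LTA replicate 1, 2 or 3 (adjusted p = 0.0561, 0.0679 and 0.0575) and without the filter (0.077), and limma-voom gave an adjusted p of 0.338. For NTGF against LTA the adjusted p ran from 0.000286 to 0.338 over 18 edgeR, DESeq2 and limma-voom alternatives. That of LTAF against NTG ran from 0.000379 to 0.245 over 19. The fit with only NTGF and LTA gave no value for this model.

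Higher at 4 °C in both pairs, TraesCS5A01G493000 on 5A lay at 16.8, 15.7 and 18.1 CPM in LTA and 21, 21.6 and 22.4 in LTAF. It had 1 count in NTGF and 2 in NTG, for ratios of 988.1 (176.9 to 39070; edgeR adjusted p = 1.58e-07) and 760.9 (210.1 to 6291; edgeR adjusted p = 6.32e-08). Without NTGF replicate 1 the former was a bound of 205.1. TraesCS6D01G048400 on 6D was close to it in pattern, with 16.8, 22.4 and 18.4 CPM in LTA, 22.2, 12.2 and 23.8 in LTAF and again 1 and 2 counts in NTGF and NTG. Its ratios were 1127 (201.9 to 44560; edgeR adjusted p = 8.31e-07) and 681.4 (188.1 to 5635; edgeR adjusted p = 5.88e-07). The former was at least 233.9 without NTGF replicate 1. Both were all but undetected in plants grown at 20 °C, with or without 24 hours of freezing.

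Lower in both frozen groups, TraesCS5D01G068800 on 5D was high in both groups that were not frozen. It lay at 93, 67.7 and 88.4 CPM in LTA and 137.6, 114.3 and 125.9 in NTG, but at 1.94, 1.54 and 5.01 in NTGF and 8.84, 16.9 and 8.14 in LTAF. The log2 fold changes were -4.88 ± 0.45 for NTGF against LTA and -3.48 ± 0.41 for LTAF against NTG (SE; edgeR adjusted p = 2.37e-05 and 7.69e-05). The former ratio of mean CPM, 29.3, became 47.6 without NTGF replicate 3. TraesCS5A01G057500 on 5A shared this shape at 59.7, 42.8 and 53.7 CPM in LTA and 1.74, 1.44 and 3.89 in NTGF, with log2 fold changes of -4.47 ± 0.35 and -3.19 ± 0.33 (SE; edgeR adjusted p = 8.3e-06 and 2.84e-05). Of the 972 models of this class 92 were eligible, against 891 of 1730 higher in both frozen groups. At 4 °C, 2396 of the 6192 lower and 4650 of the 7899 higher were eligible. Eligibility needed 10 CPM, which 10.2% of the class lower in both frozen groups reached, against 40.2% to 60.2% of the other 3 classes.

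Complete absence from one group was rare at these depths. Of models that reached 10 CPM on average in NTGF, 12 had no count in the LTA libraries. One of them, TraesCS5A01G445500LC, lay at 30.8, 48.4 and 20.8 CPM in NTGF and was named after its values were seen. It was at 7.58, 1.65 and 5.35 CPM in LTAF and 0.729, 0.0383 and 0.188 in NTG (edgeR adjusted p = 0.000215 for NTGF against LTA and 0.00471 for LTAF against NTG). The reverse, at least 10 CPM in LTA and no count in NTGF, held for 4 models. Besides the pair first by fold, these were TraesCS7A01G237100 and TraesCS7D01G255400, named for that count of 4. Both had counts in every library of the other 3 groups, so the limit on genotype holds for them too. TraesCS7A01G237100 had 13.8, 15 and 15.3 CPM in LTA, 14, 12.1 and 13.6 in LTAF and 1.73, 0.307 and 1.18 in NTG. TraesCS7D01G255400 had 11.1, 14 and 16.3 CPM in LTA, 5.70, 12.2 and 10.9 in LTAF and 3.15, 3.33 and 2.87 in NTG. NTG lay below LTA in both, and the edgeR adjusted p of NTGF against LTA was 2.36e-05 and 3.99e-06. Models without a count in one group, but at 1 CPM or more in each of the other 3, numbered 10 for NTGF, 9 for LTA, 1 for NTG and 0 for LTAF. Of the 10 of NTGF, 1 was unplaced and no chromosome held more than 2.

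Low-confidence models tended to be lower in NTGF. Of 12097 tested, 12.2% were called higher and 28.0% lower, with a median log2 fold change of -0.33. Of 57596 high-confidence models, 21.4% were called higher and 18.6% lower, with a median of 0.10. The gap between the medians was -0.43 with the filter on low counts and -0.02 without it. Without the filter all 46174 low-confidence models entered, most of them with too few counts to pass it. The gaps thus describe different sets of models, and what lies behind the change was not tested. Low-confidence models held 5.58% ± 0.112 of all counts in NTGF and 5.80% ± 0.247 in LTA (SD, n = 3).

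No chromosome stood far from the whole. Among the 21 chromosomes 517 of 2911 models on 6B, the fewest, and 708 of 2971 on 1D, the most (23.8%), were called higher by share, and the share called lower from 17.3% on 1D to 22.0% on 6B, beside 19.8% and 20.3% over all models. Leaving out 1 NTGF or LTA library gave 15.9% to 22.0% higher on 1D, where all models gave 13.9% to 18.6%. By subgenome the shares called higher were 19.7% on A, 19.2% on B and 20.5% on D.

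Neighbouring models were read in bins of 25, made of tested high-confidence models sorted by identifier along each chromosome, 2269 bins in all. The median bin held 5 models called higher in NTGF and 5 called lower, and the number higher minus the number lower lay between -5 and 6 in the central 90% of bins. The 4 bins farthest out on each side are described. They were chosen by the calls, so no test is given, and with bins of 15 models only 2 of these 8 overlapped the bins chosen.

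Of the bins higher in NTGF, that on 5D (models 318200 to 321900) was higher in both frozen groups. It held 15 models called higher and 3 lower, and its mean log2 CPM was 3.53, 3.95 and 3.52 in NTGF against 1.67, 1.56 and 1.58 in LTA. In LTAF against NTG, which did not choose it, 12 models were called higher and 3 lower, with means of 3.12 ± 0.19 and 1.47 ± 0.19 log2 CPM (SD, n = 3). Frost tolerance loci with clustered CBF genes are known from the long arms of the wheat chromosomes 5A, 5B and 5D, but identifiers were not matched to them. The bin on 5B (486200 to 491200) had 14 higher and 1 lower, at 2.92 ± 0.20 log2 CPM in NTGF, 1.24 ± 0.04 in LTA, 2.44 ± 0.15 in LTAF and 1.87 ± 0.09 in NTG. There LTAF against NTG called 7 models higher and 7 lower. Over all tested models that contrast called 23.5% higher and 21.5% lower. Both counts on 5B are thus near the background, while the 12 models higher on 5D lie above it. Bins on 4D (301800 to 305900; 14 higher, 1 lower) and 6B (346200 to 349300; 13 higher, 1 lower) were lowest in LTA, at 1.64 ± 0.06 and 1.21 ± 0.04 log2 CPM, and highest in NTGF, at 2.94 ± 0.19 and 2.36 ± 0.06. In LTAF and NTG they lay between, at 2.30 and 2.44 on 4D and at 1.55 and 1.80 on 6B.

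The 4 bins with most models lower in NTGF had mean log2 fold changes of -0.82 to -0.43, against 1.41 to 2.59 in the 4 above. Medians lay closer in size, at -0.65 to -0.47 against 0.77 to 1.15. In the 4 bins above, 7 or 8 models each differed at least 4-fold by the fitted value and drew the means up. The 4 lower bins held 1 to 3 such models each. The bin on 5B includes TraesCS5B01G490500, which had no count in LTA. Its fitted log2 fold change of 10.88, which enters the mean of that bin, is thus no measure of size. A bin on 6A (92200 to 96400), chosen after its value was seen, had the lowest mean of all bins, -1.91, with 6 models called higher and 9 lower. The highest mean, 3.08, was that of another bin on 5D (486500 to 491500), chosen in the same way. It held 11 models called higher and 2 lower. On 4A (159300 to 163100) 13 models were called lower and 0 higher, with a mean of 1.92 ± 0.11 log2 CPM in NTGF and 2.68 ± 0.05 in LTA. On 2B (252300 to 256000) 13 were lower and 1 higher, on 3A (195600 to 198900) 12 and 1, and on 3B (98700 to 103100) 13 and 2, and the average log2 fold change of their models was -0.56, -0.61 and -0.43. In all 4 bins LTAF lay above NTG, and LTAF against NTG called 6 to 8 of the 25 models higher and 1 or 2 lower. Over all tested models 23.5% were higher and 21.5% lower, so the counts higher are near the background. NTGF was lowest of the 4 group means in each of them.

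**Figure D5:**
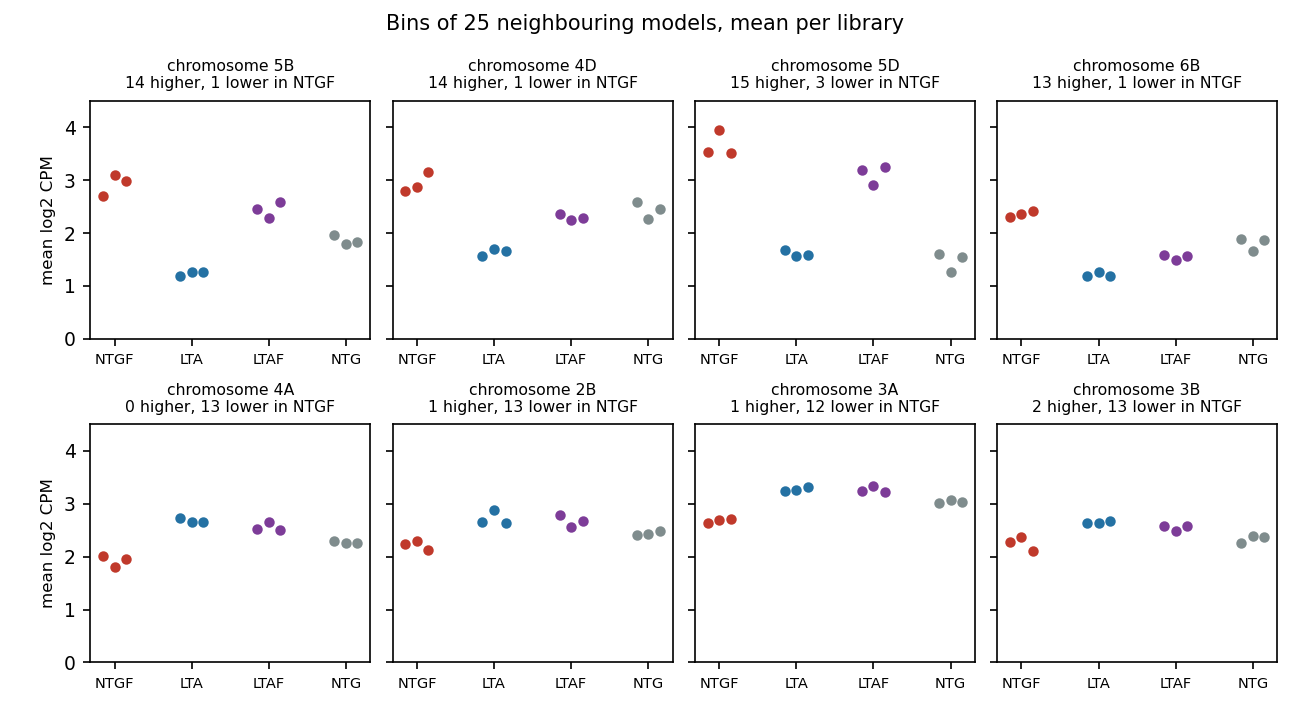
Mean log2 CPM of the 25 models of each bin in every library, for the 4 bins with most models higher in NTGF than LTA (top) and the 4 with most lower (bottom). Calls between NTGF and LTA chose the bins, so the lack of overlap of these groups in all 8 is a description. On 5D LTAF lies nearer to NTGF, and NTG nearer to LTA.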

How the data were processed

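The authors deposited raw read counts per gene model, with 1 column per library per the file headers. The table holds 128497 models, whole numbers and no normalization. Trizol extraction of crowns and standard Illumina libraries are given per the labels' protocols. For the aligner, counter, build and annotation, the sources used here give no name. Columns were matched to libraries by name, and groups were taken from the labels.

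The 69693 models that passed filterByExpr (minimum count 10) were scaled with TMM. One model per gene, with a coefficient for each of the 4 groups, was fitted to all 12 libraries with the robust quasi-likelihood F test of edgeR 4.0.16 under R 4.3.3, and called at a Benjamini-Hochberg adjusted p under 0.05. NTGF against LTA and LTAF against NTG were tested. CPM was computed on TMM-adjusted library sizes, with 2 added as prior count before log2. Exact permutation tests served for single measures such as shares of counts.

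Named models were called, without overlap between the groups, and ranked by fitted fold change, by difference in mean CPM, or within a class by the smaller fold change of both contrasts. For ranks by fold and by class a mean of at least 10 CPM was needed, and the first 2 are printed, since no identifier has a name. The comparison, rules and groupings were chosen with earlier results of these data known. The gene lists that had been written by symbol could not be used. Alternatives were DESeq2 1.42.0, limma-voom (limma 3.58.1), other scaling, no filter, fewer libraries and a replicate block. The main steps were tested on simulated counts.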

Additional observations from a re-analysis of the deposited data

How the results depend on the processing

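The counts for NTGF against LTA stayed within 1.5 times of those given under every alternative but the 2-fold threshold, which left 9132 higher and 9326 lower. With any 1 of the 12 libraries left out they were 10113 to 15264 and 11478 to 16023. Library totals gave 10302 models higher and 27631 lower in LTAF than NTG. The class lower in both frozen groups moved most. It held 2065 with library totals, 636 with only the groups of each contrast and 548 with the 2-fold threshold. With 1 library left out it held 593 to 1165. With high-confidence models only it held 535, but that setting removes the low-confidence models, 493 of the 972 given above. With the 2-fold threshold the classes lower and higher at 4 °C held 3891 and 4487. Without NTGF replicate 1 and LTAF replicate 2 together, an alternative chosen after seeing the data, the 4 classes held 2420, 6459, 8577 and 1330, in the order higher when frozen, lower at 4 °C, higher at 4 °C and lower when frozen.

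The gap of low- to high-confidence medians was -0.018 without the filter, and 2 of 8 bins were met again with bins of 15. Replicate numbers did not pair libraries: deviations of same-numbered NTGF and LTA libraries correlated at -0.01 to 0.061 and those of LTAF and NTG at -0.121 to 0.201. With the number as a block 11610 models were higher and 12561 lower in NTGF than LTA, 14928 and 12900 in LTAF than NTG, and the class lower in both frozen groups held 736. For the named models, the replicate block and the fit with high-confidence models only were not read. Of 455 values under the other alternatives, 441 kept direction and call, 14 lost the call, all of TraesCS1D01G412300, and 0 reversed. The cause was not tested. At these depths a model without a count could lie at up to 0.0524 CPM in LTA or 0.0535 CPM in NTGF.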
